A study of Mus musculus with 25 samples.

Results

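The 6 genes described here act in the recruitment of neutrophils or mark these cells, except Ccl20, whose product attracts other leukocytes. They are the chemokine genes Cxcl1, Cxcl2 and Cxcl5, the growth factor gene Csf3, the calgranulin gene S100a9 and the epithelial chemokine gene Ccl20. Each was found by its symbol in the deposited count table as 1 row, which makes 6 of the 17007 genes counted. The 6 were selected on measured values of these same libraries, their levels by group and above all the high ones in KI_Half. Levels and differences that involve KI_Half are therefore given as a description without a p-value.

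RNA came from the duodenum, the first part of the small intestine, of male mice that were 8 weeks old at the start of 8 weeks of feeding. KI_Half (n = 6) are mice with an Aldh2 knock-in (Aldh2KI) fed a diet with 2.5% ethanol and gavaged 2 times a week with ethanol at 2 g/kg, and KI_Con (n = 4) are Aldh2KI mice on control diet. WT_Con (n = 4) are C57BL/6N mice, called wild type, on control diet. WT_Half (n = 7) are C57BL/6N mice treated like KI_Half, and WT_Full (n = 4) are C57BL/6N mice with 5% dietary ethanol and gavages of 4 g/kg at the same frequency. Tissue of ethanol-fed mice was collected 9 h after a final gavage, stated as 5 g/kg. The product of Aldh2 is an enzyme of mitochondria that clears acetaldehyde made from ethanol. Not given in the sources used here are the change that the Aldh2KI allele carries, any gavage of control mice, and the final dose on each ethanol diet. No label says whether libraries of a group come from separate mice, so p-values measure only the spread between these libraries.

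Neutrophils are drawn into tissue by CXC chemokines that carry a glutamate-leucine-arginine motif before their first cysteines and bind the receptor CXCR2 on the neutrophil surface. Cxcl1, Cxcl2 and Cxcl5 encode 3 of these ligands. Csf3 encodes granulocyte colony-stimulating factor (G-CSF), which drives neutrophil production in the bone marrow and release into blood. S100a9 encodes a subunit of calprotectin, a metal-binding protein that fills the neutrophil cytosol and that stressed epithelia can also make. Ccl20 encodes the ligand of CCR6, which attracts B cells, dendritic cells and interleukin 17-producing lymphocytes, and in the gut it is made by epithelium over lymphoid follicles and by inflamed epithelium. Transcription of several of these genes is induced through NF-kB, a transcription factor that answers interleukin 1, tumour necrosis factor and bacterial products.

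In the GRCm38 build with GENCODE M21 annotation, the 3 CXC chemokine genes lie on the plus strand of chromosome 5. Cxcl5 (ENSMUSG00000029371) spans 90759360 to 90761624, Cxcl1 (ENSMUSG00000029380) spans 90891241 to 90893115 and Cxcl2 (ENSMUSG00000058427) spans 90903871 to 90905938. Aldh2 is on the same chromosome, with its lower coordinate 30807 kb beyond the start of Cxcl5. Csf3 (ENSMUSG00000038067) lies at 98701263 to 98703629 on chromosome 11, plus strand. S100a9 (ENSMUSG00000056071) lies at 90692632 to 90695721 on chromosome 3, minus strand, and Ccl20 (ENSMUSG00000026166) at 83116766 to 83119167 on chromosome 1, plus strand. All 6 are annotated as protein coding, and the counts cover their exons. The longest exact run of bases shared by transcripts of Cxcl2 and of its neighbour Cxcl3 is 157, and no source states what was done with reads that fit both, so Cxcl2 counts may include or have lost Cxcl3 reads. Cxcl3 was not analysed here. Cxcl1 shares a run of at most 23 bases with either of them.

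RefSeq promoter windows (GRCm38.p6, 250 bases before to 50 bases after the annotated start) were matched for 4 of the 6 genes, Cxcl1, Cxcl2, S100a9 and Ccl20. The 3 shown were chosen because they hold letters that fit the NF-kB consensus, which is 3 G, a purine, any pair of bases, a pair of pyrimidines and 2 C. Capitals mark its matches on either strand. The Cxcl1 window is chr5:90890995-90891294, the Cxcl2 window chr5:90903649-90903948 and the Ccl20 window chr1:83116516-83116815, all on the plus strand.
Cxcl1: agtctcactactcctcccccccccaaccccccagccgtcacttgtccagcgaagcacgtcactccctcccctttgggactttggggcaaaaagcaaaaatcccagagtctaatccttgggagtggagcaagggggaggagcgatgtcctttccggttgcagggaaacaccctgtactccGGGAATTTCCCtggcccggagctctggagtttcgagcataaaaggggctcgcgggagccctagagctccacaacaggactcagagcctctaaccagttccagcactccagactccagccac
Cxcl2: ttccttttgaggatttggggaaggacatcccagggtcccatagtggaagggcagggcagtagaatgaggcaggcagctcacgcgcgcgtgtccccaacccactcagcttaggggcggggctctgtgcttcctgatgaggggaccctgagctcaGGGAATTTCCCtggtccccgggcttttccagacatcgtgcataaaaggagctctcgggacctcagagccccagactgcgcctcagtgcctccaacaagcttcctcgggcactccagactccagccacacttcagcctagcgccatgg
Ccl20: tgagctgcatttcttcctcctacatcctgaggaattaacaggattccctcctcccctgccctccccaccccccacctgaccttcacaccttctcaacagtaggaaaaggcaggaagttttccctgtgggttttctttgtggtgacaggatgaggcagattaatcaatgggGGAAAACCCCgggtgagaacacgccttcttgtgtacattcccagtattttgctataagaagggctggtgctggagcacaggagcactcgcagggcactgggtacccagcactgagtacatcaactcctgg
The consensus was found on either strand in 8.46% of 32851 windows of this length. Cxcl1 and Cxcl2 held the same match, GGGAATTTCC, which began 71 bases before the start of Cxcl1 and 97 bases before that of Cxcl2, and which overlaps a minus-strand match shifted by 1 base. Ccl20 held 1 match on the minus strand, which reads GGAAAACCCC on the plus strand, with its first base 80 bases before the start. In S100a9 the NF-kB consensus was not found, and 2 matches to the C/EBP-like letters TTNNGNAA were found, letters that 40.7% of windows hold. The Cxcl2 window also held 1 match to the C/EBP-like letters. The AP-1 letters TGANTCA occurred in none of the 4 windows and in 7.81% of all windows. These are matches of letters and not measured binding.

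The files hold whole-number read counts for 25 libraries, with totals of 24.6 to 44.8 M (mega) counts per library. Levels below are counts per M counts (CPM) after TMM scaling, and a library with 3 counts of a gene stands at 0.0678 to 0.118 CPM, which is taken as the floor. The labels could not be checked by the level of Aldh2, since a knock-in need not change the amount of its RNA. All 4 duodenal markers sought (Pdx1, Gata4, Cybrd1, Slc40a1) were counted. Their summed level was 689 to 1492 CPM in KI_Half, against 2057 to 2376.5 CPM in KI_Con. In wild-type mice that sum was 661 to 2175 CPM in WT_Half, 927 to 1825 CPM in WT_Full and 2039 to 2732 CPM in WT_Con. Of 3 ileal markers only Slc10a2 was analysed, at 0.511 to 2.68 CPM over the 25 libraries. Summed levels of 3 Brunner gland genes ran from 15.3 to 53685 CPM, and 8 pancreatic acinar genes from 14.8 to 23.9 CPM in KI_Half, against 19.6 to 4457 CPM in KI_Con and 11.9 to 2216 CPM in WT_Con. In WT_Con, 1 library also held stomach transcripts, with a summed level of 14507 CPM for 3 gastric markers. The tissue pieces therefore differ in composition. In pieces of tissue, fewer cells of a type and less RNA per cell cannot be told apart.

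The CXC chemokine genes stood at low levels on control diet and were highest in KI_Half. Cxcl1 was at 1.86, 11.4 and 18.8 CPM in KI_Half (lowest, median and highest), against 0.961, 0.591, 0.935 and 0.908 CPM in KI_Con. All 6 KI_Half libraries lay above all 4 KI_Con libraries, and KI_Half replicates 6 and 7 were the lowest of their group at 5.01 and 1.86 CPM. Wild-type levels of Cxcl1 were 0.591, 0.815, 0.588 and 0.500 CPM in WT_Con and 1.32, 1.82 and 6.76 CPM (lowest, median and highest) in WT_Half. In WT_Full, Cxcl1 stood at 1.40, 1.12, 2.26 and 0.201 CPM in replicates 1 to 4. All 7 WT_Half libraries were above all 4 WT_Con libraries, while replicate 4 of WT_Full was below every control library.

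Cxcl2 had the widest span of the 3. Its levels were 12.7, 9.11, 20.1, 42.1, 3.80 and 1.86 CPM in KI_Half replicates 1, 2, 3, 5, 6 and 7, against 0.538, 0.0985, 0.125 and 0.316 CPM in KI_Con. In wild-type mice Cxcl2 had 0.209, 0.0604, 0.0904 and 0 CPM in WT_Con, 0.496, 1.33 and 10.2 CPM in WT_Half (lowest, median and highest), and 4.14, 1.97, 3.49 and 0.167 CPM in WT_Full. The 4 WT_Con libraries held 6, 2, 4 and 0 counts, so they lay near or below the floor. WT_Half libraries fell in a wide range, with replicates 7, 4 and 5 at 10.2, 7.55 and 3.84 CPM and the other 4 at 1.33 CPM or less.

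Cxcl5, made largely by epithelium, was the least abundant of the 3 ligands in KI_Half. It was at 5.09, 1.52, 3.88, 8.58, 1.76 and 1.27 CPM in KI_Half, replicates in the same order, against 0.154, 0.394, 0.0624 and 0.355 CPM in KI_Con. Its wild-type levels were 0, 0.211, 0 and 0.735 CPM in WT_Con, 0.797, 1.41 and 2.91 CPM in WT_Half (lowest, median and highest), and 1.82, 0.386, 2.71 and 0.0335 CPM in WT_Full. Every WT_Half library was above every WT_Con library, whereas WT_Full spanned levels on both sides of the highest control.

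Csf3 was almost absent from control libraries. KI_Half libraries held 98, 69, 130, 279, 32 and 15 counts of Csf3, or 3.30, 2.10, 3.68, 9.14, 1.11 and 0.546 CPM, against 0, 0, 2 and 0 counts in KI_Con. Summed over libraries, 623 counts in KI_Half against 2 in KI_Con gave a ratio of 192, with a 95% counting interval of 52.9 to 1588 that covers counting error only. In wild-type mice Csf3 had 0, 6, 0 and 2 counts in WT_Con and 6, 8 and 68 counts (lowest, median and highest) in WT_Half. WT_Full libraries held 2, 0, 10 and 0 counts, no more than control libraries in 3 of 4 cases. The WT_Half libraries with most Csf3 were replicates 7, 5 and 4, at 2.04, 1.26 and 1.00 CPM, which were also the 3 highest for Cxcl1 and Cxcl2 in that group.

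S100a9 was higher in nearly every library from ethanol-fed mice than in any control library. It was at 7.21, 6.22, 8.60, 23.8, 7.57 and 1.96 CPM in KI_Half, against 0.154, 0.263, 0.187 and 0 CPM in KI_Con. Wild-type libraries had 0.0695, 0.211, 0.181 and 0.118 CPM in WT_Con, 1.42, 3.76 and 8.83 CPM in WT_Half (lowest, median and highest), and 6.76, 2.47, 9.09 and 0 CPM in WT_Full. Of the 17 libraries from ethanol-fed mice, 16 lay above all 8 control libraries, the same tally as for Cxcl1. The exception for both was WT_Full replicate 4, where none of 33.2 M counts fell on S100a9.

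Ccl20 followed another pattern, with high levels in 4 of the 6 KI_Half libraries and 0.869 to 6.27 CPM in all other libraries. It was at 183, 179, 152 and 44.8 CPM in KI_Half replicates 1, 2, 3 and 5 and at 1.42 and 3.24 CPM in replicates 6 and 7, against 5.92, 3.88, 3.21 and 3.04 CPM in KI_Con. Wild-type levels were 2.71, 2.84, 3.57 and 5.14 CPM in WT_Con, 0.869, 3.09 and 6.27 CPM in WT_Half (lowest, median and highest), and 3.30, 3.59, 4.86 and 4.59 CPM in WT_Full. KI_Half therefore spanned a 129-fold range, and KI_Half replicate 6 was the second lowest of the 25 libraries. With 41 counts in that library the low value is not a matter of depth. The WT_Half libraries spanned a 7.22-fold range and the 4 WT_Full libraries a 1.47-fold range.

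**Figure D1:**
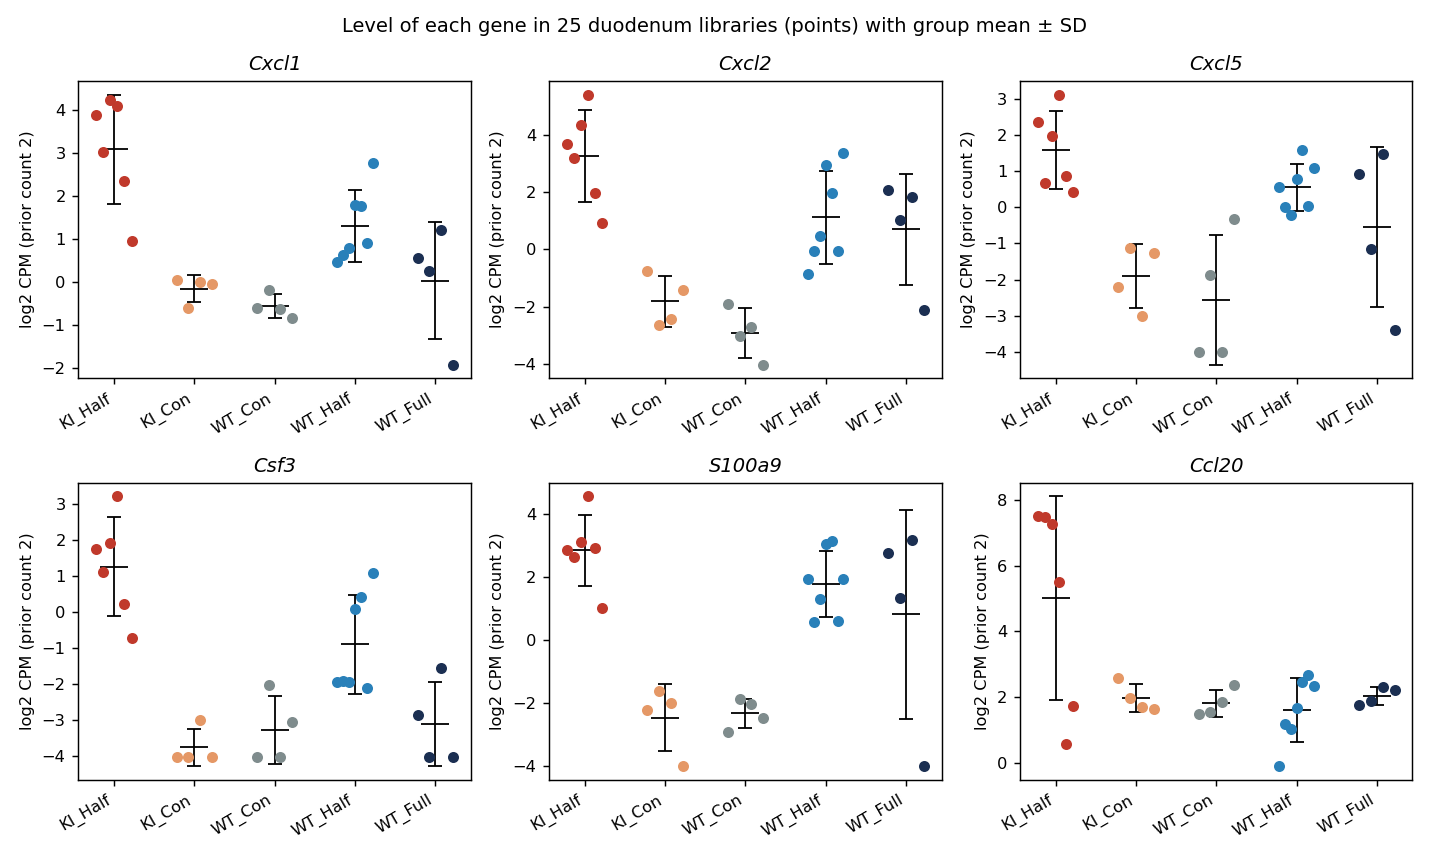
Each panel plots 1 gene, with the log2 CPM level (prior count 2) on the vertical axis and the 5 groups on the horizontal axis, points for libraries and black bars for the mean ± SD. The KI_Half points of all genes but Ccl20 lie above all KI_Con points, Ccl20 splits KI_Half into 4 high and 2 low libraries, and WT_Full replicate 4 is the lowest point of its group for Cxcl1, Cxcl2, Cxcl5 and S100a9.

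The order of mean levels was the same for Cxcl1, Cxcl2 and Cxcl5, with KI_Half highest, followed by WT_Half, WT_Full, KI_Con and WT_Con. As mean ± SD, Cxcl1 stood at 10.9 ± 6.92 CPM in KI_Half, 2.82 ± 1.94 in WT_Half, 1.25 ± 0.851 in WT_Full, 0.849 ± 0.173 in KI_Con and 0.623 ± 0.135 in WT_Con. Csf3 had the same order at the top, while its 2 control groups changed places at levels under the floor. For S100a9 and Ccl20, WT_Full came second. Neighbours in these orders overlapped in range in every case but 1, S100a9 in WT_Half over KI_Con, so the other ranks do not separate groups beyond the spread of their libraries. Per kb of exon, which allows genes to be compared, mean levels in KI_Half were 66.1 ± 61.1 CPM per kb for Ccl20, 17.7 ± 14.4 for S100a9, 7.23 ± 7.16 for Cxcl2, 5.82 ± 3.69 for Cxcl1, 2.34 ± 2.20 for Csf3 and 1.98 ± 1.52 for Cxcl5. In WT_Half the mean level of S100a9 was 8.19 ± 5.90 CPM per kb and that of Ccl20 was 2.50 ± 1.43, which puts S100a9 first there.

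Comparing ethanol with control diet within the knock-in, all 6 genes were higher in KI_Half than in KI_Con and passed the threshold of an edgeR adjusted p under 0.05, as did 37.9% of the 16944 genes tested. Since the genes were chosen for such levels, this count says nothing further about them. The log2 fold changes ± SE were 3.69 ± 0.61 for Cxcl1, 5.83 ± 0.99 for Cxcl2, 3.94 ± 0.71 for Cxcl5, 7.27 ± 1.15 for Csf3, 5.86 ± 0.81 for S100a9 and 4.55 ± 1.23 for Ccl20. The Csf3 value is a model fit against a group with 2 counts and depends on the prior count. The median over the 6 genes was 5.19, against 0.00 over all genes tested. Ccl20 no longer passed with limma-voom and sample quality weights, nor without the KI_Con libraries that had over 10 CPM of Ctrb1, a gene of pancreatic acinar cells, where the log2 fold changes were 3.75 and 4.90. Acinar genes were lower in KI_Half than in KI_Con for 8 of 8, and T and NK cell genes for 6 of 6. With the Brunner gland covariate all 6 passed, and without the Ctrb1-rich controls 5 of 6. These refits used the libraries on which the genes were chosen, so they add no support either. The part of T and NK cells, of enterocytes and of duodenal region in the fold changes was not tested.

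Comparing ethanol with control diet in wild-type mice at the lower dose, the neutrophil ligands and S100a9 were higher in WT_Half, and Ccl20 stayed at the control level. Of the 5 genes tested, 3 rose past the threshold, against a background of 1.47% of 16993 genes. Cxcl2, S100a9 and Cxcl5, with 12, 21 and 32 counts over the WT_Con libraries, passed the filter on low counts only through WT_Half. They could only be called higher, so the count is a description. S100a9 rose to 4.28 ± 3.08 CPM in WT_Half, against 0.145 ± 0.0636 in WT_Con, a log2 fold change of 4.83 ± 0.69 with adjusted p = 0.0135. Cxcl2 averaged 3.60 ± 3.84 CPM in WT_Half and 0.0898 ± 0.0876 CPM in WT_Con, a log2 fold change of 5.32 ± 1.14 with adjusted p = 0.0420. For Cxcl1 the log2 fold change was 2.18 ± 0.49 with adjusted p = 0.0497. Cxcl5 missed the threshold at 2.70 ± 0.86 with adjusted p = 0.111, although its groups did not overlap, and passed with DESeq2 at adjusted p = 0.0136. Ccl20 had a log2 fold change of 0.00 ± 0.45 with adjusted p = 1.00, that is 3.55 ± 2.03 CPM in WT_Half and 3.57 ± 1.12 CPM in WT_Con. Acinar genes were lower in WT_Half than in WT_Con for 7 of 8 past the threshold, with a median log2 fold change of -6.11. None of 6 T and NK cell genes passed, but 4 had an unadjusted edgeR p under 0.05, beside 3712 of all 16993 genes. The median log2 fold change of the 6 was -1.34. The part of T and NK cells in these values was not tested either. Csf3 was below the filter on low counts. Fitted without it, Csf3 had a log2 fold change of 3.57 ± 1.09 with adjusted p = 0.103. Because the genes were chosen with earlier results known, these p-values are not independent evidence.

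The 3 calls were not robust to the choice of control libraries. Without WT_Con replicate 1 no described gene passed, while 21 genes passed in all. Without any 1 of WT_Con replicates 2, 3 and 4 or WT_Half replicates 3, 4, 5 and 7, S100a9 was the single described gene that passed. None of the 3 passed with a covariate for Brunner gland content, where S100a9 had a log2 fold change of 4.01 with adjusted p = 0.0693, or without the 3 WT_Con libraries above 10 CPM of Ctrb1, which leaves 1 control.

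At the higher dose, WT_Full against WT_Con, no described gene passed among the 3 tested, against a background of 0.00592% of 16882 genes. By edgeR 3003 genes had an unadjusted p under 0.05, none of them among the 3 described genes tested. DESeq2 called 926 genes and limma-voom 1410. Cxcl1 had a log2 fold change of 1.02 ± 0.60 with adjusted p = 0.390, Cxcl5 of 2.41 ± 1.33 with adjusted p = 0.365, and Ccl20 of 0.21 ± 0.28 with adjusted p = 0.723. Cxcl2 and S100a9 fell below the filter on low counts. Without the filter they had log2 fold changes of 4.76 ± 1.04 and 4.95 ± 1.26, with adjusted p = 0.138 and 0.156. In the authors' deposited table the same comparison gave S100a9 a log2 fold change of 4.97 with adjusted p = 9.61e-05 and Cxcl2 4.78 with adjusted p = 0.000733. The edgeR outcome changed with the libraries in the fit. Without replicate 4 of WT_Full, 3 described genes passed and 2069 genes in all, and with all 25 libraries in 1 fit, 2 described genes passed and 1289 genes in all.

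Between the ethanol doses, WT_Full against WT_Half, 0 of 6 described genes and 0% of 16967 genes passed, while DESeq2 called 17 genes, limma-voom 2 and 780 had an unadjusted edgeR p under 0.05. Csf3 was the 1 described gene among these 780, at 0.0889 ± 0.132 CPM in WT_Full and 0.725 ± 0.734 CPM in WT_Half, with a log2 fold change of -2.85 ± 1.07 and adjusted p = 1.00. Cxcl1 stood at -1.15 ± 0.60 and the other 4 within 0.55 of 0 on the log2 scale. Between the genotypes on control diet, KI_Con against WT_Con, 0 of 2 tested described genes and 0% of 16813 genes passed, with 11 genes called by DESeq2, 2 by limma-voom and 1664 at an unadjusted edgeR p under 0.05. Cxcl1 had a log2 fold change of 0.43 ± 0.30 with adjusted p = 0.616 and Ccl20 of 0.16 ± 0.29 with adjusted p = 0.865.

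Between the genotypes on the ethanol diet, all 6 genes had higher means in KI_Half than in WT_Half, and all 6 overlapped in range. None passed in edgeR, nor did any gene (0% of 16907), while DESeq2 called 171 genes and limma-voom 884, and 2398 genes had an unadjusted edgeR p under 0.05. The log2 fold changes were 1.95 ± 0.50 for Cxcl1, 2.05 ± 0.77 for Cxcl2, 1.26 ± 0.45 for Cxcl5, 2.19 ± 0.70 for Csf3, 1.11 ± 0.53 for S100a9 and 4.72 ± 0.92 for Ccl20. Their median was 2.00, against -0.02 over all genes tested. DESeq2 called Ccl20 and Cxcl1, and so did the authors' deposited table, with log2 fold changes of 4.72 and 1.95. The test of whether the diet effect itself differed between genotypes gave 0 of 6 described genes and 0% of 17006 genes in edgeR, with 36 genes called by DESeq2, 1138 by limma-voom and 2162 at an unadjusted edgeR p under 0.05. Its log2 differences were 4.56 ± 1.22 for Ccl20, 3.74 ± 1.96 for Csf3, 1.51 ± 0.75 for Cxcl1, 1.23 ± 1.12 for Cxcl5, 1.04 ± 1.10 for S100a9 and 0.50 ± 1.77 for Cxcl2. DESeq2 called Ccl20 alone among the 6 in this test.

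**Figure D2:**
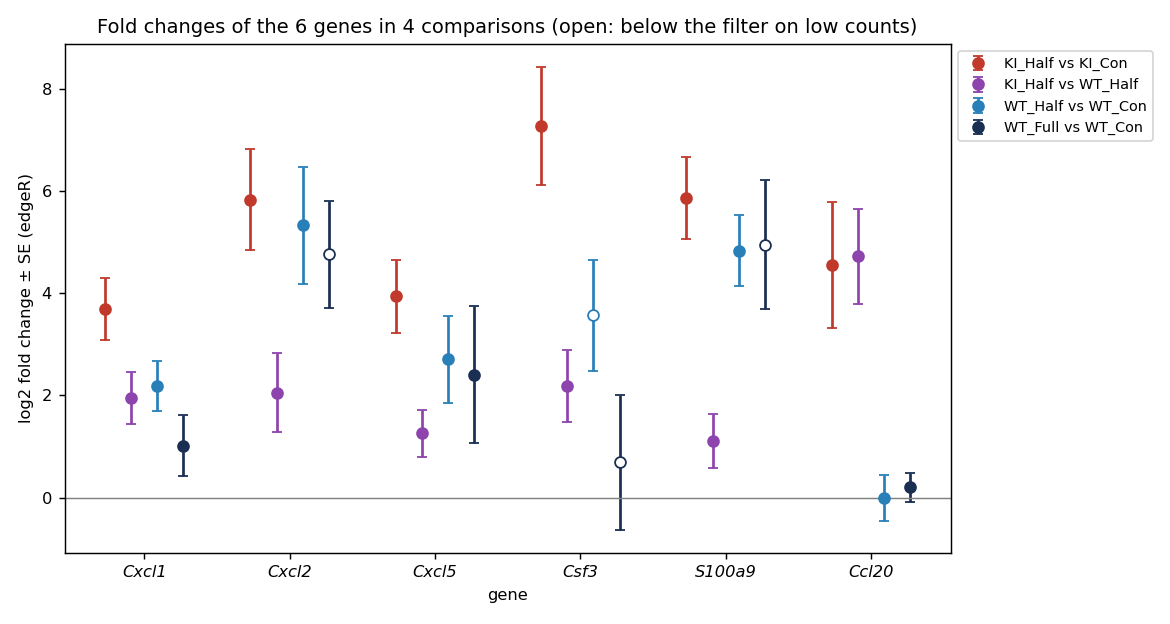
Points give the edgeR log2 fold change ± SE of each gene (horizontal axis) in 4 comparisons (colours), with open circles for genes fitted without the filter on low counts. Ccl20 stands at 4.55 and 4.72 in the comparisons that contain KI_Half and at 0.00 and 0.21 in those of wild-type mice alone, while Cxcl2 and S100a9 lie above 4 in every comparison of ethanol with control diet. The comparisons share libraries.

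Across libraries Ccl20 was less correlated with the other 5 genes than these were with each other. Over the 25 libraries, Pearson correlations of log2 CPM among Cxcl1, Cxcl2, Cxcl5, Csf3 and S100a9 were 0.80 to 0.94, and those of Ccl20 with these 5 were 0.37 to 0.69. These correlations are descriptions, since the libraries share groups and the same counting, and the genes were chosen for high levels in KI_Half. Many other genes correlated as closely: Csf3 held rank 458 among the genes most like S100a9, and Cxcl5 rank 246 for Cxcl2 and rank 184 for Cxcl1. KI_Half replicate 5 was the highest of 25 libraries for Cxcl2, Cxcl5, Csf3 and S100a9, replicate 3 for Cxcl1 and replicate 1 for Ccl20. Wild-type libraries also reached high levels of the first 5 genes: WT_Half replicate 7 was among the 6 highest for Cxcl1, Cxcl2, Cxcl5 and Csf3, and WT_Full replicate 3 was second for S100a9. WT_Half replicate 7, with 10.2 CPM of Cxcl2, had 4.99 CPM of Ccl20, and KI_Half replicate 2, with 9.11 CPM of Cxcl2, had 179 CPM of Ccl20.

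**Figure D3:**
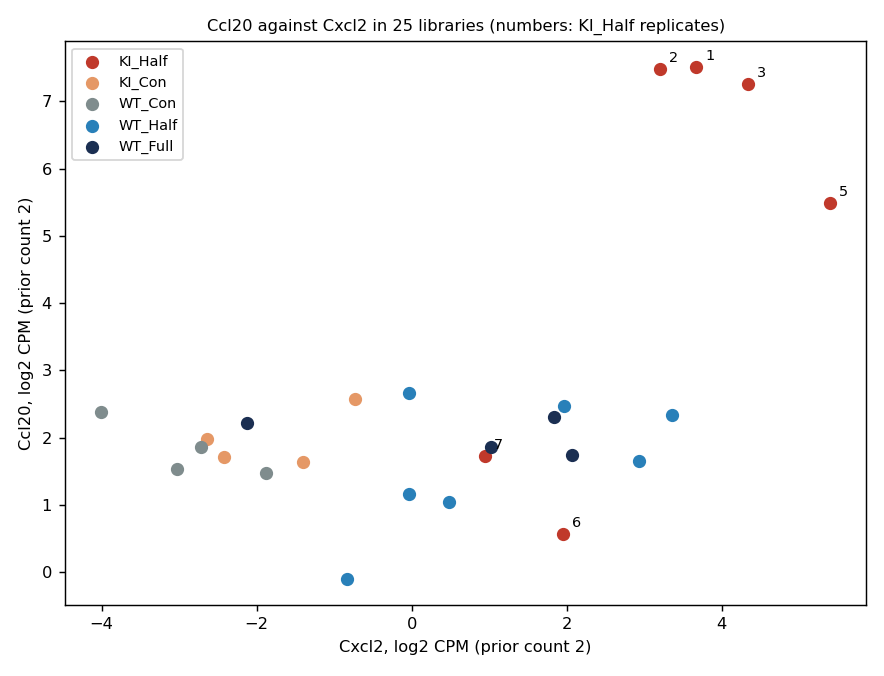
Each point is a library, with the log2 CPM level of Cxcl2 on the horizontal axis and that of Ccl20 on the vertical axis, coloured by group, and numbers naming KI_Half replicates. KI_Half replicates 1, 2, 3 and 5 stand above all other libraries in Ccl20, and KI_Half replicates 6 and 7 lie among wild-type libraries with Cxcl2 levels of 3.80 and 1.86 CPM.

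The genes most like each of the 6 were found by the same correlation over 25 libraries and 17001 genes. Ccl20 was most like Tnfaip3 (r = 0.91), Zc3h12a (r = 0.90) and Nfkbia (r = 0.89), which encode A20, regnase-1 and the NF-kB inhibitor alpha, all known as feedback inhibitors of NF-kB signalling. Tnfaip3 was at 68.2, 78.7, 113, 47.2, 27.0 and 23.4 CPM in KI_Half, against 25.3 to 31.5 CPM in KI_Con, so replicates 6 and 7 fell in or below the control range for this gene as they did for Ccl20. Nfkbia was at 253, 227, 429, 303, 85.6 and 87.4 CPM in KI_Half, against 64.2 to 83.2 CPM in KI_Con. S100a9 was most like Eif2b3, its calprotectin partner S100a8 (r = 0.93) and Hmgn1. Cxcl5 was most like Fgd3, Twf2 and the neutrophil surface gene Ly6g (r = 0.89). Cxcl1 was most like Bmyc, Plscr1 and Med9, and Csf3 like Rrm2, Them6 and Bmyc, after Cxcl1 itself (r = 0.94). Cxcl2 was most like Ecel1, AC161438.1 and Coro2a, with r of 0.93 to 0.94.

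Genes that mark neutrophils were also higher in KI_Half. Of 23 neutrophil markers other than S100a9, 18 were in the files, and Mpo, Elane, Ngp, Camp and Stfa2l1 were not analysed here. In KI_Half against KI_Con, 14 of the 18 rose and none fell, a share of 77.8% beside the background of 37.9%. Markers near 0 in KI_Con, such as S100a8, Mmp8 and Clec4d, passed the filter on low counts only through KI_Half. They could only be called higher, so the share is a description. S100a8 averaged 5.80 ± 4.87 CPM in KI_Half, against 0.0735 ± 0.0518 in KI_Con, with a log2 fold change of 6.28 ± 0.93. The CXC chemokine receptor gene Cxcr2 had a log2 fold change of 5.44 ± 0.97, Retnlg of 4.26 ± 0.81, Trem1 of 3.69 ± 1.10 and the decoy receptor gene Il1r2 of 2.94 ± 0.76. The collagenase gene Mmp8 had 280 counts over the KI_Half libraries and the lectin gene Clec4d 334, against 2 counts each over the KI_Con libraries. Csf3r, which encodes the G-CSF receptor and is carried by mature neutrophils, did not pass, at 4.57 CPM in KI_Half and 2.37 CPM in KI_Con with a log2 fold change of 0.95 ± 0.43. Prtn3 and Ltf, made at earlier stages of granulocyte growth, and Mmp9 did not pass either. Without the control libraries above 10 CPM of Ctrb1, 9 of the 18 passed, beside 2565 of all 16993 genes tested there.

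In WT_Half against WT_Con, 4 of the 18 rose, a share of 22.2% beside the background of 1.47%. They were Ly6g, Cxcr2, Clec4d and S100a8. Cxcr2, S100a8 and Ly6g passed the filter on low counts only through WT_Half, so they could only be called higher. The median level of Ly6g was 0.125 CPM in WT_Con and 42.8 CPM in WT_Half. The share is therefore a description. Cxcr2 had 334 counts over the WT_Half libraries, against 2 over the WT_Con libraries, with adjusted p = 0.0262. S100a8 had a log2 fold change of 4.41 ± 0.89 with adjusted p = 0.0350. None of these 4 passed without WT_Con replicate 1 or without the control libraries above 10 CPM of Ctrb1, and 1 neutrophil marker passed with the Brunner gland covariate. By library, KI_Half replicate 5 was the highest of 25 for 14 of the 18 markers, and this is the library with the highest Cxcl2, Cxcl5, Csf3 and S100a9. The summed level of 16 of the markers, without S100a9, Lcn2 and Ly6g, which epithelium can also express or which belong to a larger gene family, ran from 29.0 to 137 CPM in KI_Half, against 12.3 to 22.5 CPM in KI_Con. In wild-type mice that sum was 17.8 to 60.4 CPM in WT_Con, 19.4 to 46.5 CPM in WT_Half and 19.7 to 59.8 CPM in WT_Full, so these groups overlapped. WT_Con replicates 1 to 4 had sums of 24.8, 17.8, 60.4 and 49.0 CPM. Replicates 3 and 4 of WT_Con also had the highest Brunner gland sums of the 25 libraries, at 53685 and 33250 CPM. Ltf, which is in the sum, was highest of the 25 libraries in WT_Con replicate 3. The part of gland tissue in these sums was not tested. The part of neutrophil number in the level of S100a9 was not tested.

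**Figure D4:**
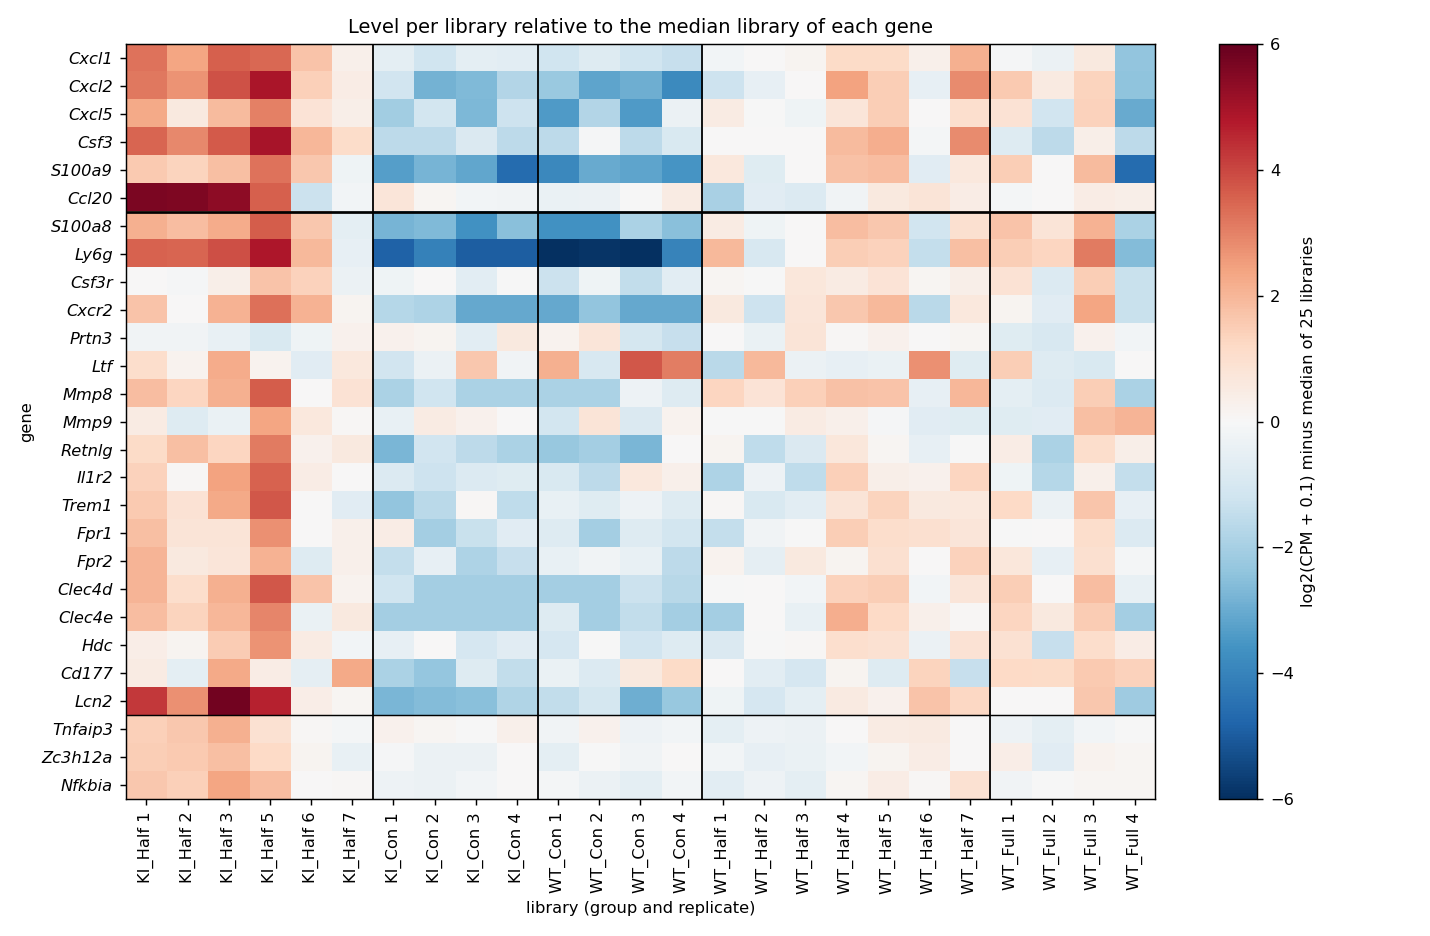
Rows are the 6 genes (top), 18 neutrophil markers (middle) and the 3 genes most like Ccl20 (bottom), columns are the 25 libraries by group, and colour gives log2(CPM + 0.1) minus the median of 25 libraries for that gene. KI_Half replicate 5 is the highest library for 14 of the 18 markers, the control groups are low for S100a9, S100a8, Ly6g and Cxcr2, and Ccl20 with the bottom 3 genes is high in KI_Half replicates 1, 2, 3 and 5.

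Counts for other genes of the same pathways are read against all genes tested. In KI_Half against KI_Con 3388 genes rose and 3032 fell, together the background of 37.9%, so members called in both directions are no mark of a list. In WT_Half against WT_Con the background was 1.47%. The lists, like the 6 genes, were drawn up with earlier results known, and counts leave out the 6 genes. Among calgranulins and S100 proteins, 6 of 9 tested rose and 1 fell in KI_Half against KI_Con, a share of 77.8% beside 37.9%. S100a14, an epithelial member, rose by a log2 fold change of 4.11 ± 0.51, and S100g, the intestinal calcium-binding protein calbindin-D9k, fell by 2.19 on the log2 scale. In WT_Half against WT_Con, 2 of these 9 rose (S100a8 and S100a10) and 1 fell (S100g), a share of 33.3% beside 1.47%. In both comparisons S100a8 passed the filter on low counts only through the ethanol group.

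Of the regulators of the NF-kB and C/EBP response, 7 of 14 rose and 1 fell in KI_Half against KI_Con, a share of 57.1% beside the background of 37.9%. In WT_Half against WT_Con 0 of 14 passed, and with a background of 1.47% that count says nothing about the list. There 2 of 14 had an unadjusted edgeR p under 0.05, beside 3712 of all 16993 genes tested. Those that rose in KI_Half against KI_Con were Nfkbia, Tnfaip3, Zc3h12a, Bcl3, Rela, Cebpb and Cebpd. Cebpd, which encodes a C/EBP factor of the acute-phase response, had 70.0 CPM in KI_Half and 11.4 CPM in KI_Con, a log2 fold change of 2.62 ± 0.60. Relb, of the alternative NF-kB pathway, fell by 0.81 on the log2 scale.

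Of the upstream cytokines and receptors of the interleukin 1, interleukin 6 and TNF list, 5 of 12 rose in KI_Half against KI_Con, a share of 41.7%, which is near the background. They were Il1b, Tnf, Il1rn, Tnfrsf1a and Tlr2. Il1b averaged 7.49 CPM in KI_Half and 1.66 CPM in KI_Con, with a log2 fold change of 2.19 ± 0.58, and Il1rn, the interleukin 1 receptor antagonist, 15.5 CPM in KI_Half and 0.920 CPM in KI_Con, with 4.08 ± 0.52. In the interleukin 17 and 22 axis, a known inducer of Cxcl1, Cxcl5, Csf3 and Ccl20 in epithelia, 0 of 9 tested genes rose and 2 fell, a share of 22.2% beside 37.9%, namely Il17rb and the decoy receptor gene Il22ra2. Il17a, Il17f, Il17c, Il22, Il23a and Il23r were not analysed here. In WT_Half against WT_Con no gene passed in the list of interleukin 1, interleukin 6 and TNF inputs or in that of the interleukin 17 and 22 axis. Unadjusted edgeR p was under 0.05 for 6 of 12 and 0 of 9, beside 3712 of all 16993 genes tested. By adjusted p the background was 1.47%.

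Of 6 genes for colony-stimulating factors and their receptors other than Csf3, 0 rose and 3 fell in KI_Half against KI_Con, beside a background of 37.9%. The 3 were Csf2, the macrophage receptor gene Csf1r and Csf2ra. Csf1 stood at 16.4 CPM in KI_Half and 16.6 CPM in KI_Con. Of the chemokines of monocytes, lymphocytes and eosinophils, 2 of 19 rose (Ccl2 and Ccl28) and 5 fell (Ccl5, Ccl21a, Ccl25, Cxcl9 and Cxcl12), a share of 36.8% that is near the background. Ccl25, the small intestinal ligand of CCR9, was at 368 CPM in KI_Half and 633 CPM in KI_Con, with a log2 fold change of -0.77 ± 0.15. The interferon-induced T cell chemokine Cxcl9 was at 0.783 CPM in KI_Half and 3.74 CPM in KI_Con, with a log2 fold change of -2.24 ± 0.49. In WT_Half against WT_Con, Cxcl13 rose and none of the 19 fell.

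**Figure D5:**
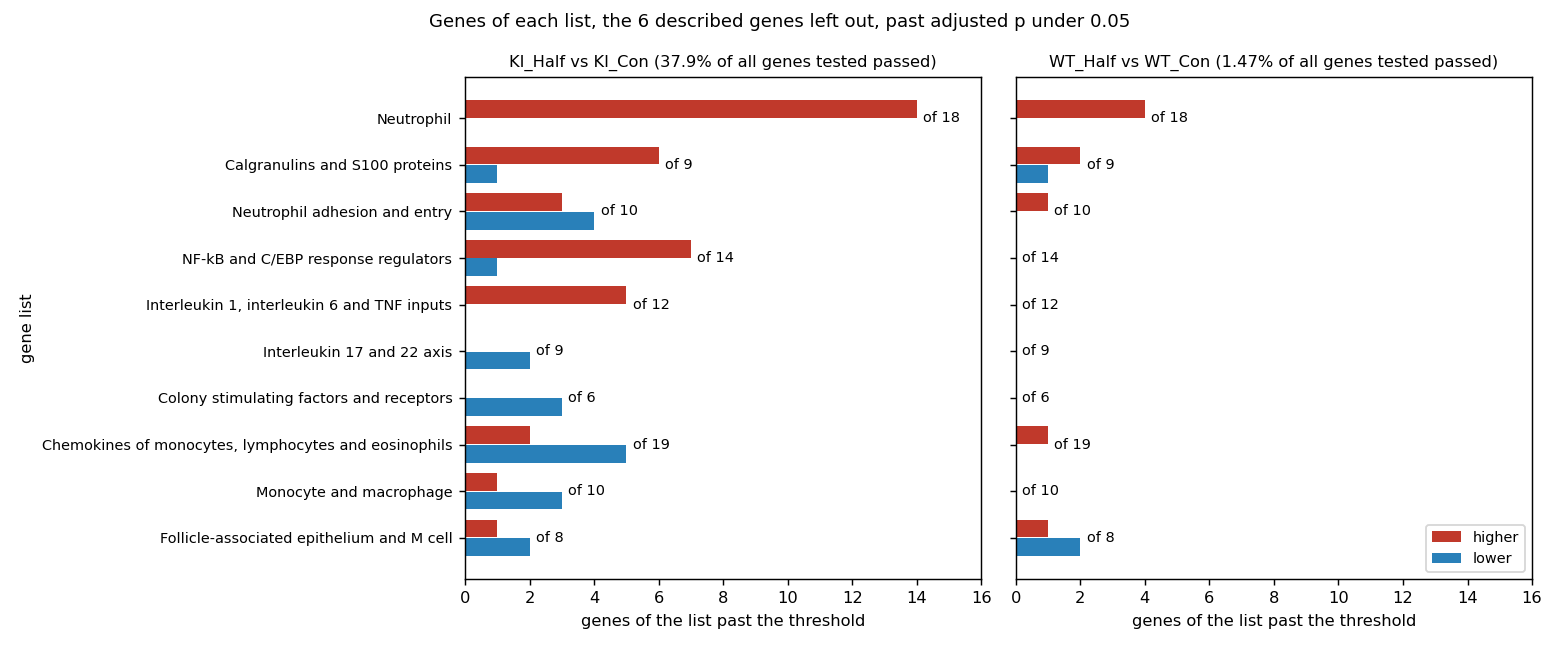
Bars count the genes of each list past the threshold (horizontal axis), higher in red and lower in blue, in KI_Half vs KI_Con (left) and WT_Half vs WT_Con (right), with the number tested beside each pair of bars and the described genes left out. Neutrophil markers give 14 higher of 18 on the left and 4 of 18 on the right, beside 37.9% and 1.47% of all genes tested. Some of these markers passed the filter on low counts only through the ethanol group.

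Of genes for leukocyte adhesion, 7 of 10 passed in KI_Half against KI_Con, a share of 70.0% beside the background of 37.9%. In this list 3 rose (the endothelial selectin gene Selp, the neutrophil integrin gene Itgam and Cd177) and 4 fell (Itgb2, Itgal, Selplg and Pecam1). Among markers of monocytes and macrophages, 1 of 10 rose and 3 fell, which is near the background of 37.9%, and the summed level of the 10 was 79.0 to 244 CPM in KI_Half and 182 to 357 CPM in KI_Con. Cd14, a co-receptor for bacterial lipopolysaccharide, was the gene that rose, with a log2 fold change of 2.71 ± 0.54. Of markers of follicle-associated epithelium and M cells other than Ccl20, 1 of 8 rose (Marcksl1) and 2 fell (Gp2 and Tnfrsf11a) in KI_Half against KI_Con, a share of 37.5% that is near the background. The same 3 passed in the same directions in WT_Half against WT_Con, beside a background of 1.47%. Gp2, which M cells and acinar cells of the pancreas both express, was at 0.684 CPM in KI_Half and 14.5 CPM in KI_Con. Ccr6, which encodes the receptor of Ccl20, was not analysed here.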

How the data were processed

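Polyadenylated duodenal RNA was sequenced in 25 libraries. Per the submitters' processing notes, FastQC, Trimmomatic, HISAT2, SAMtools, featureCounts and DESeq2 were used with the GRCm38 build. Their versions, the strand setting and the annotation release are not stated. As deposited, the counts are whole reads per gene without normalisation. Per the file headers, the deposited signal is a mean of normalised counts, and the deposited log2 fold changes and p-values are the authors' DESeq2 results for 2 comparisons. A further deposited column equals the count of libraries above 20 reads for each gene, with a smallest value of 5. Genes below that are not analysed here. The deposited score columns (a Wald statistic and ranks, per the file headers) were not used. Repeated identifiers (213 of 17220 lines) with equal counts were merged.

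The main tool was edgeR 4.0.16 in R 4.3.3, with the quasi-likelihood F test, TMM scaling, filterByExpr by group, each comparison on its own 2 groups, and two-sided Benjamini-Hochberg adjusted p under 0.05 over all genes. SE is the log2 fold change divided by the square root of F. Expression levels use TMM over all libraries. DESeq2 1.42.0 and limma 3.58.1 were alternatives, with size factors, filter, replicate block, gland covariate and left-out libraries. The genes, lists and tests were chosen with earlier results of these data known. The named genes are the 6, the 3 most alike for each, and list genes past the threshold or with the smallest p. The fit was tested on simulated counts. No library pair held equal counts. Correlations of same-numbered libraries within a comparison ran from -0.31 to 0.39, so the numbers were not taken as pairs.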

Additional observations from a re-analysis of the deposited data

Results flagged for a closer look

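Cxcl1 in KI_Con replicate 2 was at 0.591 CPM, below the other 3 KI_Con libraries at 0.908 to 0.961 CPM, and stood far from them relative to the spread of the group. The value lies within the range of WT_Con.

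Csf3 in KI_Con replicate 3 was at 0.0624 CPM, from 2 counts, and stood out because the other 3 KI_Con libraries had 0 counts. It is under the floor of 3 counts. Of 30 sets of 1 gene in 1 group, 2 stood out in this way, where chance gives about 1 in 20 for values without ties. With 3 libraries at 0, any count in the other library stands out. The count of 2 therefore cannot be set against that rate.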

How the results depend on the processing

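All 6 described genes passed in KI_Half vs KI_Con in each refit that left out 1 library. The 6 were chosen for high levels in KI_Half, so these refits add no support for the difference. In KI_Half vs WT_Half 0 passed, against 2 with DESeq2, 1 with limma-voom and 1 in a fit of all 25 libraries; the cause was not tested. In WT_Half vs WT_Con 3 passed, against 0 with the replicate block, 0 with the gland covariate and 0 once WT_Con libraries with over 10 CPM of Ctrb1 were dropped, where 1 control is left and is assumed to vary like the other group. Leaving out 1 library gave 0 to 3 there. In WT_Full vs WT_Con 0 passed, against 2 in the fit of all 25 libraries and 0 to 3 with 1 library left out. In the interaction, DESeq2 called 1. The gland covariate and the Ctrb1 limit were added after the data were seen.

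Over all genes, DESeq2 called 171 and limma-voom 884 in KI_Half vs WT_Half, where edgeR called 0 and the gland covariate and the fit of all 25 libraries gave 2 each. In KI_Half vs KI_Con edgeR called 6420, against 2565 without the Ctrb1-rich controls. In WT_Half vs WT_Con it called 249, against 1353 with DESeq2, 1232 with limma-voom, 720 in the fit of all libraries, 7 with the gland covariate and 0 with the replicate block, and 21 to 446 with 1 library left out. In WT_Full vs WT_Con it called 1, against 926, 1410 and 1289 with DESeq2, limma-voom and all libraries. DESeq2 called 17 in WT_Full vs WT_Half, 11 in KI_Con vs WT_Con and 36 in the interaction, where limma-voom called 1138.

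Signs turned where values were small. Ccl20 in WT_Half vs WT_Con, at 0.00, became -0.0025 with DESeq2, -0.16 with limma-voom, -0.0095 in the fit of all libraries, -0.0031 with relative log expression factors and -0.88 with the replicate block, and -0.20 to 0.22 with 1 library left out. S100a9 in WT_Full vs WT_Half, at 0.13, became -0.26 with limma-voom and -0.47 to 0.54 with 1 library left out. Cxcl2 there became 0.74 with the replicate block, and Cxcl5 ranged from -1.04 to 0.13 with 1 library left out. Ccl20 in KI_Con vs WT_Con became -0.094 with limma-voom and ranged from -0.093 to 0.39. In the interaction, Cxcl2 became -0.61 with limma-voom and ranged from -0.17 to 1.08, and Cxcl5 from -0.51 to 1.68. Of the 18 neutrophil markers, 4 passed in WT_Half vs WT_Con, against 7 with limma-voom and, with the replicate block, 0 of the 11 tested there. The replicate block changed no other call of the 6 genes. Genes with few counts in control libraries, Csf3 and Cxcl2 above all, are limited by depth.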
